A study of Homo sapiens with 2 samples.

Results

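Mitochondrial fatty acid oxidation was followed through 10 genes in 2 single-cell RNA-seq libraries of MDA-MB-231, a human triple-negative breast cancer line. The D21 library held revertant cells cultured in RPMI-1640 without methionine but with 100 µM L-homocysteine and 1.5 µM vitamin B12, and its label gives day 21. The D0 library held parental cells cultured with 100 µM methionine. Both grew with dialyzed serum, there was 1 library per condition, and no label says whether the revertant cells descend from 1 clone. The 10 genes, of 36601 features in the deposited matrices, were chosen by name: CPT1A, CPT2, ACADVL, ACADM, ECHS1, HADHA, HADHB, ACAA2, ETFA and ETFB. They were selected because ACADVL had been seen to be lower in the D21 library. The ACADVL values below are therefore a description and not a finding of their own, and the question was whether the other 9 genes followed it.

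Fatty acids are burned in the mitochondrial matrix. Acyl groups cross the inner membrane as carnitine esters, made by CPT1A at the outer membrane and turned back to acyl-CoA by CPT2 on the matrix side. Each turn of the oxidation spiral then shortens the acyl-CoA by dehydrogenation, hydration, a further dehydrogenation and thiolysis. ACADVL and ACADM carry out the opening dehydrogenation on very-long-chain and medium-chain acyl-CoA, while HADHA and HADHB form the trifunctional protein that carries out the later steps on long chains. ECHS1 hydrates and ACAA2 cleaves shorter chains. ETFA and ETFB are the subunits of the electron transfer flavoprotein, which takes electrons from the acyl-CoA dehydrogenases and passes them to the respiratory chain through ETFDH. Most of these genes are active in most tissues, and PPAR and ERR nuclear receptors raise many of them.

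The D21 library had 12487 cells and 182839048 UMIs in cells, against 7492 cells and 183098116 UMIs in the D0 library. A UMI is a unique molecular identifier, which marks 1 captured transcript. Cells had medians of 12022 UMIs and 3823 genes at D21, against 18908 UMIs and 4977 genes at D0. Mitochondrially encoded genes took 6.52% of the UMIs at D21 and 5.81% at D0, and ribosomal protein genes took 18.5% and 17.7%. The libraries shared 21 cell barcodes. Of the markers expected in this line, VIM, CD44, MSN, CAV1, S100A4 and EGFR were all present (VIM at 2876 CPM at D21 and 4157 CPM at D0). ESR1, PGR, CDH1, PTPRC, COL1A1 and CDKN2A were at 1.05 CPM or less in both libraries, while ERBB2 and EPCAM lay between 9.46 and 11.8 CPM. CPM is the count scaled to 1000000 UMIs of the library's cells. The kit captures the 3′ ends of transcripts, so that a long transcript gives no more UMIs than a short one and levels were not divided by length. With 1 library per condition there was no replicate spread and no test. All intervals are 95% and cover counting error only.

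The members that stood furthest apart are shown by the 300 bases around their start sites (250 before and 50 after), from RefSeq on GRCh38.p14. ACADVL and ACAA2 had the lowest ratios of the 10 genes, and HADHA and HADHB were the pair whose start sites face away from each other over 307 bases and whose windows share 194 bases. Capitals mark matches to the GC box, GGGCGG, on either strand, of which the ACAA2 window had none.
ACADVL, chr17:7219688-7219987, plus strand: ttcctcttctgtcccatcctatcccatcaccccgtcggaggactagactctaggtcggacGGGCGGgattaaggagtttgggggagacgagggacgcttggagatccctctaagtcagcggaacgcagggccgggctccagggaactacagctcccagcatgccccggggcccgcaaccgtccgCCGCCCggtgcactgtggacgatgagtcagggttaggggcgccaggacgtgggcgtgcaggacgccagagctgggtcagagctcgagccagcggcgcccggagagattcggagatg
ACAA2, chr18:49813484-49813783, minus strand: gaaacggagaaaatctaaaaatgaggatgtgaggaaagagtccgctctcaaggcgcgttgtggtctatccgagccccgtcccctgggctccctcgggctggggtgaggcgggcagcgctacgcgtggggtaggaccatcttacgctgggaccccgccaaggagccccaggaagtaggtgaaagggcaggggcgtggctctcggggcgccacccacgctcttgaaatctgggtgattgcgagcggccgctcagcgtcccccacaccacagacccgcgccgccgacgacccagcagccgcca
HADHA, chr2:26244583-26244882, minus strand: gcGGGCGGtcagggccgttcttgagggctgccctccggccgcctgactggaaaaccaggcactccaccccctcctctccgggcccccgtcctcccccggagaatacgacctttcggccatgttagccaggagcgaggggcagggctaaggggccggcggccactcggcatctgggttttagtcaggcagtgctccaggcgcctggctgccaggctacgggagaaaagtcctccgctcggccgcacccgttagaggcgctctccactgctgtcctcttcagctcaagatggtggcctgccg
HADHB, chr2:26244689-26244988, plus strand: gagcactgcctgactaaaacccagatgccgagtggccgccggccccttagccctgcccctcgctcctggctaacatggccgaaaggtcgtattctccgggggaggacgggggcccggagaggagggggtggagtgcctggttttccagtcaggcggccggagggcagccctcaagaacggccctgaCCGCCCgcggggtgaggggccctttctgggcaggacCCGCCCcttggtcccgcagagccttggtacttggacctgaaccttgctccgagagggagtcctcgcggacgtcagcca
The ACADVL window shown is the downstream one of 2 that RefSeq lists, and the other, at chr17:7216875-7217174, had no match. The 12 windows of the 10 genes were searched for 5 short motifs on both strands. A GC box was found in 9 windows of 8 genes, and in 45.0% of all 35116 windows in the table. The CCAAT box (CCAAT) was found in windows of 2 genes, ETFA and ETFB, and in 34.6% of all windows. The nuclear receptor half-site AGGTCA, the E-box CACGTG and the sterol regulatory element TCACNCCAC were found in none of the 12 windows, against 13.8%, 7.26% and 1.13% of all windows. In the ETFA window, not printed, a CCAAT box shared letters with a GC box. At such shares an absence from 12 windows says little, and bases outside the windows were not searched. A match is a run of letters and not a measured binding site.

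ACADVL was the only member more than 1.5-fold lower at D21, and the other 9 did not follow it to that extent. The 10 genes summed to 593 CPM at D21 and 710 CPM at D0, a ratio of 0.835 (0.829 to 0.842). Without ACADVL the sums were 559 and 623 CPM, a ratio of 0.898 (0.890 to 0.906). Of the 10 ratios, 9 were below 1 and 1, that of HADHA, was above 1. The interval lay below 1 for 8 genes, above 1 for HADHA, and spanned 1 for ACADM. At these counts the intervals are narrow, and they excluded 1 for most genes of other lists too. They lay below 1 for 18 and above 1 for 5 of 25 nuclear genes of oxidative phosphorylation. Of 17 citric acid cycle genes they lay below 1 for 13 and above 1 for 3. The share over all genes is not given here, so these counts are a description only.

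**Figure D1:**
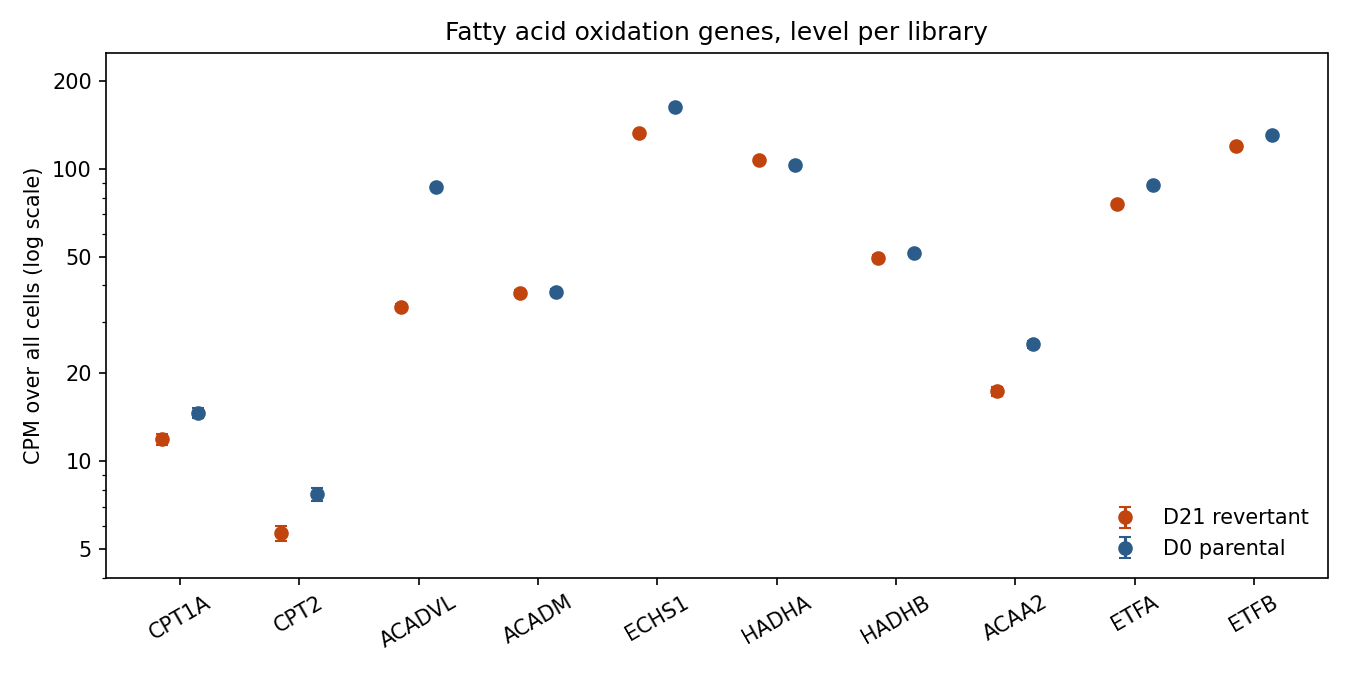
Level of the 10 genes in CPM on a log scale, D21 left of D0 for each gene, ordered by step of the pathway, with 95% Poisson intervals that are often smaller than the points. ACADVL was at 33.7 CPM at D21 and 87.0 CPM at D0, while HADHA, HADHB and ACADM nearly coincide between the libraries.

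A level of 20 CPM or more in either library was reached by 6867 genes. Of these, 238 (3.47%) were at least 1.5-fold lower and 77 (1.12%) at least 1.5-fold higher at D21. Among the members, 1 of 10 was past that fold downward and 0 upward. The one was ACADVL, whose fall led to the choice of the genes, so that its count says nothing against the background share. The median log2 ratio of the 10 members was -0.25, and -0.21 without ACADVL, beside -0.003 over all 6867 genes, with an interquartile range from -0.17 to 0.14. A ratio below 1 was found for 50.6% of all 6867 genes, beside 9 of the 10 members, ACADVL included. CPT1A and CPT2 stayed under 20 CPM in both libraries and are not among the 6867. The median over the 8 members that are, ACADVL included, was -0.17.

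**Figure D2:**
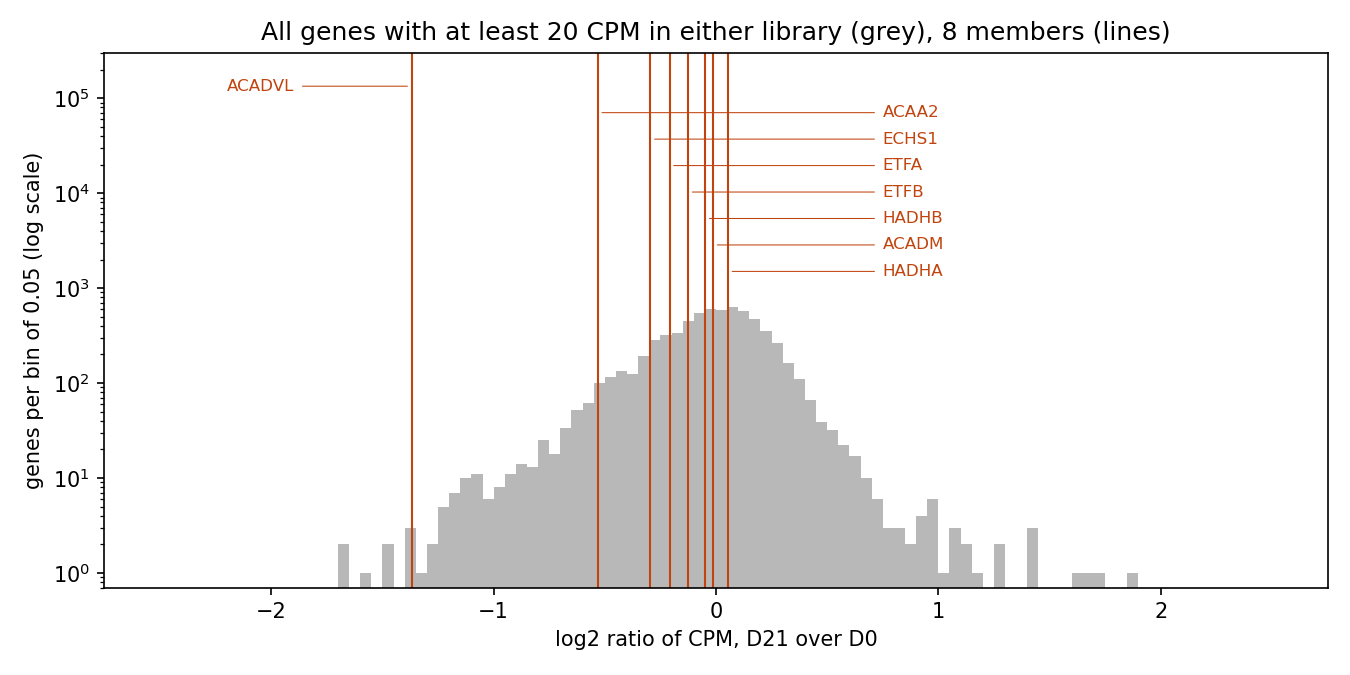
Log2 ratio of CPM, D21 over D0, for the 6867 genes that reached 20 CPM in either library (grey, genes per bin of 0.05 on a log scale), with the 8 members among them as lines. ACADVL stands at -1.37 in the sparse left tail and the other 7 lie between -0.53 (ACAA2, at percentile 4.76 of the genes) and 0.05 (HADHA).

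The carnitine shuttle was the least abundant step. CPT1A, the rate-controlling acyltransferase of the outer membrane, was at 11.9 CPM at D21 and 14.7 CPM at D0. It was lower in the D21 library, with a ratio of 0.810 (0.765 to 0.858), although in the quartile of cells with the fewest UMIs the ratio was 1.09 (0.916 to 1.29). CPT2 was at 5.66 CPM at D21 and 7.71 CPM at D0, a ratio of 0.734 (0.677 to 0.796). These rest on 2172 and 1035 UMIs at D21 and on 2684 and 1412 UMIs at D0, the smallest counts among the members. CPT1A lies at chr11:68754620-68844410 on the minus strand and CPT2 at chr1:53196429-53214197 on the plus strand (GENCODE 29, GRCh38, as for all gene spans here).

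ACADVL opens the spiral for very long chains and sits on the inner membrane, and the gene lies at chr17:7217125-7225273 on the plus strand. It had 6160 UMIs at D21 and 15933 UMIs at D0, or 33.7 and 87.0 CPM. The ratio was 0.387 (0.376 to 0.399), a log2 ratio of -1.37, the 8th lowest of the 6867 genes. ACADM, its medium-chain counterpart (chr1:75724347-75787575, plus strand), was nearly level, at 37.6 CPM at D21 and 37.9 CPM at D0. Its ratio was 0.991 (0.958 to 1.02). In the order of levels ACADVL was 5th of the 10 genes at D0, where its interval overlapped that of ETFA, and 7th at D21, below ACADM. The order of the other 9 was the same in both libraries, from ECHS1, ETFB and HADHA at the top to ACAA2, CPT1A and CPT2 at the bottom. ACADVL made up 5.68% of the members' UMIs at D21 and 12.3% at D0.

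The later steps of the spiral fell into genes that were nearly level and genes that were lower. HADHA (chr2:26190635-26244726, minus strand), the alpha subunit of the trifunctional protein with its hydratase and long-chain dehydrogenase, was at 107.5 CPM at D21 and 103.6 CPM at D0. It was the one member above 1, with a ratio of 1.04 (1.02 to 1.06). HADHB (chr2:26243170-26290468, plus strand), the beta subunit with the thiolase, was at 49.8 CPM at D21 and 51.5 CPM at D0, a ratio of 0.967 (0.940 to 0.996). Over all cells the subunits thus stood within a few percent of their D0 levels, and HADHA was the more abundant in both libraries. ECHS1 (chr10:133362480-133373689, minus strand), the short-chain hydratase, was the most abundant member and was lower at D21, at 133 CPM against 163 CPM at D0. Its ratio was 0.815 (0.802 to 0.829). ACAA2 (chr18:49782167-49813960, minus strand), the matrix thiolase, was at 17.4 CPM at D21 and 25.1 CPM at D0. With a ratio of 0.692 (0.661 to 0.724) it came next to ACADVL among the members, as the 327th lowest of the 6867 genes.

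Both subunits of the electron transfer flavoprotein were lower by less. ETFA (chr15:76215355-76311472, minus strand), the alpha subunit, was at 76.2 CPM at D21 and 88.1 CPM at D0, a ratio of 0.865 (0.846 to 0.885). ETFB (chr19:51345169-51366418, minus strand), the beta subunit, was at 119.8 CPM at D21 and 130.6 CPM at D0, a ratio of 0.917 (0.900 to 0.934). ETFDH, the membrane enzyme that receives their electrons, was below 20 CPM, at 11.3 CPM at D21 and 12.7 CPM at D0, and is named after its values were seen.

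The same UMIs were also read cell by cell, so the shares below largely follow from the CPM and are not a separate result. Cells of the D21 library held fewer UMIs, so each cell of both libraries was thinned at random to 5422 UMIs, the lowest number allowed at D21, and no cell was left out. After thinning, ACADVL was found in 16.3% of D21 cells (15.7 to 17.0) and 35.7% of D0 cells (34.6 to 36.7). Without thinning the shares were 35.1% and 77.1%. The thinned D21 cells with 0, 1, 2 and 3 or more ACADVL UMIs made up 83.7%, 14.6%, 1.59% and 0.0801%, against 64.3%, 27.6%, 6.58% and 1.43% of D0 cells. Poisson counts with the same mean would leave 83.5% of D21 cells and 63.5% of D0 cells with none. The variance over the mean was 1.02 at D21 and 1.07 at D0, where Poisson counts have 1. The D0 cells with 3 or more UMIs, 1.43% (1.17 to 1.72), were more than the 1.11% of the Poisson distribution, and those with 1 UMI, 27.6% (26.6 to 28.7), were fewer than its 28.8%. Thinned D21 cells held a mean of 0.181 ACADVL UMIs, too few to show or exclude a separate group of cells without the transcript.

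**Figure D3:**
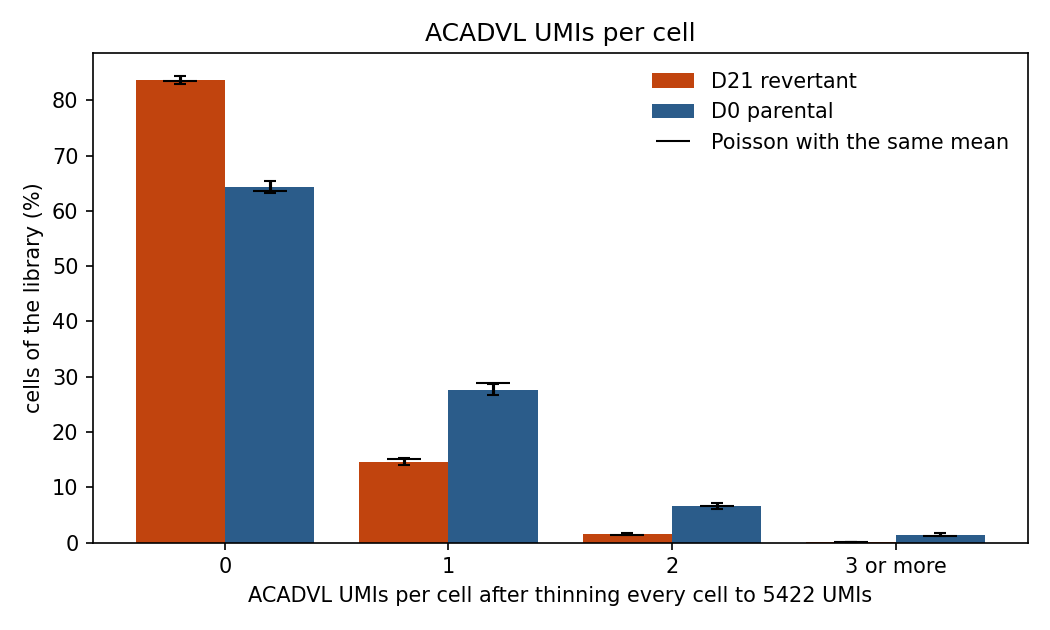
Share of cells with 0, 1, 2 and 3 or more ACADVL UMIs after thinning every cell to 5422 UMIs, D21 left of D0, with exact binomial 95% intervals and, as short lines, a Poisson distribution of the same mean. Cells with none made up 83.7% at D21 and 64.3% at D0, against 83.5% and 63.5% for the Poisson lines.

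For the other members the thinned shares differed less. ACADM was found in 18.2% of D21 cells and 18.6% of D0 cells, HADHA in 42.8% and 41.2%, and HADHB in 22.9% and 23.5%. ECHS1 was found in 50.2% and 57.7%, ACAA2 in 8.79% and 12.03%, ETFA in 33.9% and 38.4%, and ETFB in 46.6% and 48.4%. CPT1A was found in 5.94% and 7.29% and CPT2 in 2.77% and 3.96%. A thinned cell held a median of 3 UMIs of the 10 genes together at D21 and 4 at D0, and 4.56% of D21 cells and 2.84% of D0 cells held none. The variance over the mean was from 1.00 to 1.07 for 9 of the members at D21, at or a little above that of Poisson counts. D21 cells without ECHS1 made up 49.8% (48.9 to 50.7), against 48.6% for Poisson counts. Those without HADHA made up 57.2% (56.3 to 58.05), against 56.1%. For the rarest members a value near 1 says little about their spread. ETFB was wider, at 1.24 at D21 and 1.22 at D0. Over single cells the 45 pairs of members hardly varied together, with Pearson correlations of thinned counts from -0.035 to 0.041 at D21 and from -0.023 to 0.038 at D0. Counts this sparse hold little room for correlation, so that these values are given as a description only.

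Barcodes with at most 100 UMIs, most of them empty droplets, carry RNA set free in the suspension. In them ACADVL was at 46.8 CPM at D21 and 101 CPM at D0, lower at D21 as in cells. HADHA was at 82.4 CPM at D21 and 83.1 CPM at D0 there, and ACADM at 29.9 and 28.7 CPM. The part of free RNA in the members' levels was not tested.

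Cells of this line differed in state in both libraries, so the members were also read within states. Cells were called AGR2 state when they had at least 3 thinned UMIs of AGR2, SPANXB1 and SOX4 together and fewer than 3 of CEMIP, SAA1 and SAA2, and SAA state in the reverse case. This gave 2288 AGR2-state cells and 3953 SAA-state cells at D21, against 2862 and 911 at D0. A further 225 D21 cells and 106 D0 cells met both limits, and 6021 and 3613 met neither. The genes that set the states differ between the libraries themselves, so the sizes of the states are not compared. The states are ranges of a score and not types, and 24.0% of D21 cells and 23.2% of D0 cells had 2 or 3 UMIs of a state's genes, next to its limit.

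ACADVL was lower at D21 in each state, with ratios from 0.372 to 0.380. In AGR2-state cells it was at 31.9 CPM at D21 and 83.9 CPM at D0, a ratio of 0.380 (0.354 to 0.408). In SAA-state cells it was at 35.6 CPM at D21 and 94.8 CPM at D0, a ratio of 0.375 (0.354 to 0.398). Cells of neither state gave 0.380 (0.363 to 0.396) and cells of both gave 0.372 (0.309 to 0.446). ACAA2 was also alike across states, at 0.658 (0.590 to 0.733) in the AGR2 state, 0.678 (0.619 to 0.743) in the SAA state and 0.653 (0.610 to 0.698) in neither. Differences of ratios between states were not tested, since each state had 1 library per condition.

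Other members varied more with state. ETFB was at 178 CPM at D21 and 160 CPM at D0 in AGR2-state cells, a ratio of 1.11 (1.08 to 1.15). In SAA-state cells it was at 99.7 CPM at D21 and 112 CPM at D0, a ratio of 0.889 (0.851 to 0.929). ETFB was thus higher at D21 in one state and lower in the other, and in both libraries it was the member with the lowest level in SAA-state relative to AGR2-state cells, at ratios of 0.560 at D21 and 0.702 at D0. HADHA and HADHB ran the other way. The SAA-state level was 1.42 times the AGR2-state level at D21 and 1.39 times at D0 for HADHA, and 1.44 and 1.34 times for HADHB. ECHS1 had a ratio of D21 to D0 of 0.938 (0.905 to 0.973) in the AGR2 state and 0.756 (0.729 to 0.785) in the SAA state, and CPT1A had 0.900 (0.791 to 1.02) and 0.692 (0.617 to 0.777).

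**Figure D4:**
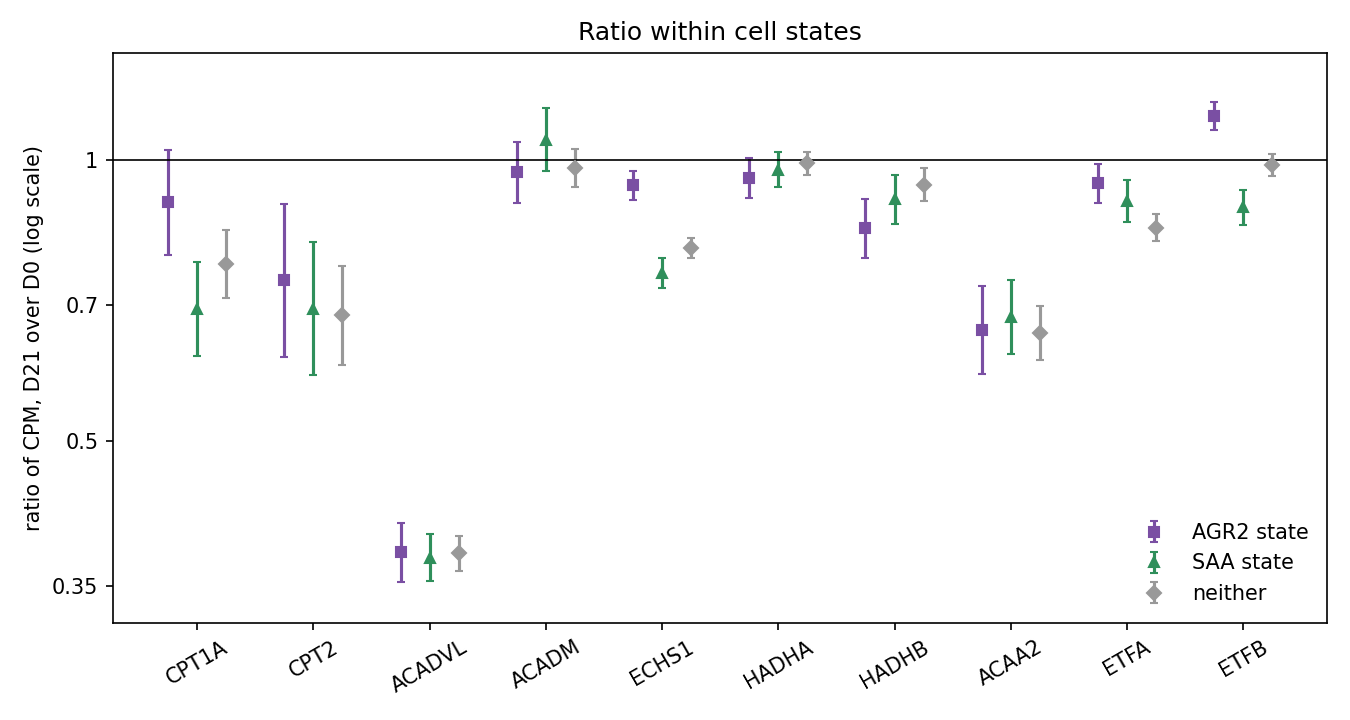
Ratio of CPM, D21 over D0 (log scale), of each member within AGR2-state cells, SAA-state cells and cells of neither state, with exact conditional 95% intervals. ACADVL stays between 0.375 and 0.380 in the 3 groups, and ETFB is at 1.11 in the AGR2 state and 0.889 in the SAA state.

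HADHA, HADHB and ETFB read differently once the states were taken apart. HADHA, at 1.04 over all cells, had ratios of 0.955 (0.909 to 1.00) in the AGR2 state, 0.976 (0.935 to 1.02) in the SAA state, 0.999 (0.869 to 1.15) in both and 0.991 (0.963 to 1.02) in neither. HADHB had ratios of 0.844 (0.785 to 0.907) in the AGR2 state and 0.907 (0.854 to 0.963) in the SAA state. In both it was at 1.02 (0.838 to 1.24) and in neither at 0.940 (0.902 to 0.979). When the D21 states were given the share of UMIs they had at D0, HADHA had a ratio of 0.979 and HADHB 0.909. ETFB moved the opposite way, to 1.03 from the 0.917 found over all cells. ACADM was at 0.991 with these weights as without them, and its intervals spanned 1 in every state. ACADVL stayed at 0.379 under these weights and ECHS1 was at 0.841. The sum of the 10 members was at 0.848. These weights rest on the sizes of states whose own genes differ between the libraries. The part of the state limits in these shifts was not tested.

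ACADVL was lower at D21 at every depth per cell. Cells were ranked by their UMIs and each library was cut into 4 groups of equal size. From the shallowest group to the deepest, ACADVL was at 32.0, 32.5, 33.6 and 34.7 CPM at D21 and at 87.3, 80.5, 85.4 and 90.0 CPM at D0. The D21 groups did not overlap the D0 groups. For the other 9 genes summed, the groups were at 577, 573, 555 and 551 CPM at D21, against 599, 616, 630 and 627 CPM at D0. The gap was smallest in the shallowest cells. There the ratios of CPT1A (1.09), ETFB (1.01), HADHB (1.00) and ACADM (1.02) were above 1 with intervals that spanned it, and that of HADHA was 1.11 (1.04 to 1.18). Medians of UMIs per cell were near each other in the 4th D21 group (24108) and the 3rd D0 group (22602). In these ACADVL was at 34.7 and 85.4 CPM and the other 9 at 551 and 630 CPM. The gap of the other 9 was smaller in pairs of shallower groups. They were at 555 and 616 CPM in the 3rd D21 group (14428) and the 2nd D0 group (16258). In the 2nd D21 group (10242) and the 1st D0 group (11779) they were at 573 and 599 CPM.

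**Figure D5:**
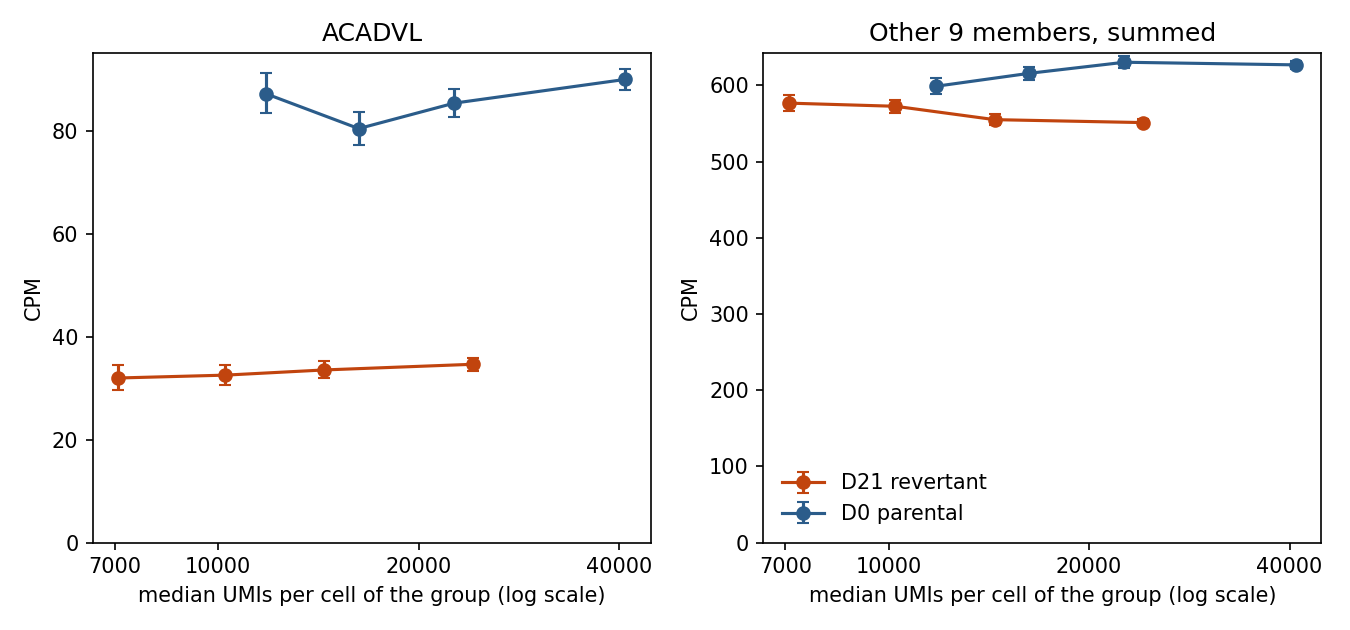
CPM of ACADVL (left) and of the other 9 members summed (right) in 4 equal groups of cells by UMIs per cell, against the median UMIs of the group on a log scale, with 95% Poisson intervals and D21 listed before D0. ACADVL lies between 32.0 and 34.7 CPM in the D21 groups and between 80.5 and 90.0 CPM in the D0 groups.

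Reads of overlapping or neighbouring genes could enter a member's count, since the sources used here do not give the counting settings. DLG4, on the strand opposite to ACADVL, overlaps its span by 2717 bases and was at 2.53 CPM at D21 and 3.40 CPM at D0. Reads wrongly assigned between the overlapping genes were not tested. SNHG22, whose start lies 63 bases from that of ACAA2 on the opposite strand, was at 2.25 CPM at D21 and 1.88 CPM at D0, a ratio of 1.20 (1.03 to 1.38). HADHA and HADHB overlap by 1557 bases on opposite strands. RABGGTB, which overlaps ACADM on the same strand, was at 76.7 CPM at D21 and 70.7 CPM at D0, so that the ACADM level is less certain. HADHA has 2 processed pseudogenes that are not among the features counted. DLG4 and RABGGTB were named after their values were seen. Within 200 kb of ACADVL, 9 other genes had at least 20 CPM, with a median log2 ratio of -0.11. The lowest of them was CLDN7, a tight-junction claudin, at a ratio of 0.472, and the highest EIF5A, a translation factor, at 1.20, both chosen after their values were seen.

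Upstream of the spiral, fatty acids are activated to acyl-CoA. Of 12 listed genes of activation and carnitine handling besides CPT1A and CPT2, 6 had at least 20 CPM in either library, and 5 of them were lower at D21 and 1 higher, with a median log2 ratio of -0.41. DBI, the acyl-CoA binding protein, was at 290 CPM at D21 and 430 CPM at D0, a ratio of 0.675 (0.668 to 0.683). ACSL4 and ACSL3, acyl-CoA synthetases, had ratios of 0.689 and 0.747. ACBD3, a Golgi protein with an acyl-CoA binding domain, was at 1.05. None of the 6 was past 1.5-fold.

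Other enzymes of acyl-CoA breakdown, some of which, such as ACOT9 and ECHDC1, are not steps of the spiral, were mixed. Of 16 listed, 9 had at least 20 CPM in either library, which is called measured from here on. Of these 9, 5 were lower and 4 higher at D21, with a median of -0.15. HADH, the medium- and short-chain hydroxyacyl-CoA dehydrogenase, was at 32.5 CPM at D21 and 43.8 CPM at D0, a ratio of 0.742 (0.718 to 0.768). DECR1, which serves unsaturated chains, had a ratio of 0.785, and ACOT9, an acyl-CoA thioesterase, 0.827. HSD17B10, a matrix dehydrogenase of short branched chains, had 1.16, ECHDC1, an ethylmalonyl-CoA decarboxylase, 1.09, and ECI1, an enoyl-CoA isomerase, 1.03. The rest of the measured genes were ACAT1 at 0.841, ECI2 at 0.900 and ACOT13, a thioesterase, at 1.01, named after their values were seen. Among partners of the electron transfer flavoprotein and its flavin supply, 4 of 11 were measured, 1 lower and 3 higher, with a median of 0.15. That median speaks for the measured genes only. Those below 20 CPM ran from a ratio of 0.509 (SARDH) to 1.11 (DMGDH), both named after their values were seen. SLC52A2, a riboflavin transporter, was at 0.793. IVD, the isovaleryl-CoA dehydrogenase of leucine breakdown, was at 1.16, RFK, the riboflavin kinase, at 1.14, and SLC25A32, a mitochondrial carrier of folate and flavin, at 1.08.

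Regulators and PPAR targets were read in the same way. Of 7 measured regulators of 15 listed, 5 were lower and 2 higher, with a median of -0.30. PPARG was at 42.1 CPM at D21 and 59.7 CPM at D0, a ratio of 0.706 (0.686 to 0.727). ESRRA, an orphan receptor that drives oxidative genes, had a ratio of 0.712, and PRKAA2, an AMP-activated kinase subunit, 0.806. PPARD was higher, at 43.9 CPM at D21 and 34.6 CPM at D0 (1.27), as was PRKAA1, the other catalytic subunit of that kinase (1.11). Of 12 listed PPAR targets, 3 were measured and all 3 were lower, UCP2, a mitochondrial carrier, at 0.735, PLIN2, a lipid droplet coat protein, at 0.838, and FABP5, a fatty acid binding protein, at 0.918. The median of these 3 was -0.26. The targets below 20 CPM ran more widely, from a ratio of 0.325 (0.292 to 0.362) for ANGPTL4 to 1.37 (1.05 to 1.79) for FABP3. ANGPTL4 and FABP3 were named after their values were seen.

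Oxidation in peroxisomes, which shortens very long chains by separate enzymes, gave a median of -0.22 over 6 measured genes of 15, 4 lower and 2 higher. HSD17B4, the peroxisomal bifunctional enzyme, had a ratio of 0.680, CAT, catalase, 0.691, and ACAA1, the peroxisomal thiolase, 0.797. ABCD3, a peroxisomal importer, had 1.21, and SCP2, a sterol carrier and thiolase, 1.05. The lists past the spiral are read beside the 8 members with at least 20 CPM, whose median was -0.17. These 8 include ACADVL, whose fall led to the choice of the members. Without ACADVL the middle log2 ratio of the measured members is that of ETFB, at -0.12. Of 17 measured genes of the citric acid cycle (18 listed), 14 were lower and 3 higher, with a median of -0.10, led by IDH3G at 0.626, FH at 0.725 and SDHA at 0.827, with IDH3A at 1.06, SUCLG1 at 1.05 and DLD at 1.03 on the other side. Of 25 nuclear genes of oxidative phosphorylation, 18 were lower and 7 higher, with a median of -0.15. ATP5ME, an ATP synthase subunit, was at 0.566, UQCRC1, of complex III, at 0.757, and NDUFA1, of complex I, at 0.758, while NDUFA4, COX5B and NDUFV2 were at 1.22, 1.17 and 1.14. In each of these lists 1 gene was past 1.5-fold lower, IDH3G and ATP5ME, beside 3.47% of all genes.

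Fatty acid synthesis is the opposite pathway. Of 18 measured genes of 21 listed, 16 were lower and 2 higher at D21, with a median of -0.39, and 7 were past 1.5-fold lower, beside 3.47% of all genes. FADS2, a desaturase, was at 23.7 CPM at D21 and 62.6 CPM at D0, a ratio of 0.379 (0.366 to 0.392). SCD, the stearoyl-CoA desaturase, was at 84.5 CPM at D21 and 195 CPM at D0, a ratio of 0.434 (0.426 to 0.442). FASN, the fatty acid synthase, was at 31.7 CPM at D21 and 69.1 CPM at D0, a ratio of 0.458 (0.444 to 0.473). FADS3, a further desaturase family member, was at 1.09 and HACD3, an elongation dehydratase, at 1.04. The ratio of ACADVL, 0.387, lay between those of FADS2 and SCD, whereas the other 9 oxidation members lay between 0.692 and 1.04. The fall of ACADVL led to the choice of the members, and the lists were chosen with earlier results known. Its place among these genes is thus a description only, and a shared control was not tested.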

How the data were processed

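The 2 libraries of MDA-MB-231 cells, D21 and D0, were grouped by their labels. The deposited values are UMI counts per gene and barcode, made by the authors with Cell Ranger 4 from 10x Genomics 3′ v3.1 libraries on GRCh38, not normalized and with empty droplets. The sources used here do not give the gene annotation or the counting settings. The other deposited files hold barcodes and gene names.

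A barcode counted as a cell from 10% of the UMI number at the 99th percentile of the 5000 largest barcodes (5422 UMIs at D21, 9009 at D0), given 500 or more genes and a mitochondrial share of no more than 20%. This removed 38 of 12525 called barcodes at D21 and 11 of 7503 at D0. Doublets were kept and no caller was run. Counts were summed per library and given as CPM. Ratios have exact conditional intervals, shares Clopper-Pearson intervals and levels exact Poisson intervals, at 95%. A count of 3, or 0.0164 CPM in either library, was taken as the limit that a count of 0 allows. Lists were read over genes that reached 20 CPM in either library.

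The members and gene lists were chosen with earlier results of these data known. The text names all members, up to 3 lower and 3 higher genes per list furthest from a ratio of 1, and neighbours on the opposite strand that start within 1000 bases of a member. The ratio intervals and the thinning were checked on simulated Poisson counts. Those counts hold no spread between cells or libraries beyond counting error, so the check covers the computation only. Positions came from GENCODE 29, which held 94.6% of the gene IDs, and promoter windows from RefSeq, where all 10 members matched. Python 3.11.15, numpy 2.4.6, scipy 1.17.1 and pandas 2.3.3 were used.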

Additional observations from a re-analysis of the deposited data

Results flagged for a closer look

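ETFB, the beta subunit of the electron transfer flavoprotein, had ratios of D21 to D0 on opposite sides of 1 in the 2 cell states. In AGR2-state cells it was 1.11 (1.08 to 1.15) and in SAA-state cells 0.889 (0.851 to 0.929). The difference between the states was not tested, since each state had 1 library per condition, and the intervals cover counting error only. In cells of neither state the ratio was 0.987 (0.960 to 1.01). ETFB was also the member with the widest spread over cells, and its level fell with UMIs per cell in both libraries, at 148 CPM in the D21 cells with the fewest UMIs and 111 CPM in those with the most, against 147 and 124 CPM at D0. The part of depth in the difference between states was not tested.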

How the results depend on the processing

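No paired analysis was possible because each condition had 1 library. With no replicates, the values describe these 2 libraries, and the spread between cultures is unknown. Culture medium and time in culture, library and depth cannot be told apart. The alternatives changed the UMI minimum, the mitochondrial limit, the cells with the most UMIs, the genes in the CPM total, the scaling, the weight of each cell and the depth. Of 100 member ratios (10 members, 10 alternatives), 91 moved by less than their counting interval, and 9 moved further. No ratio whose interval excluded 1 changed side, but ACADM, whose interval spans 1, was at 1.01 in CPM without mitochondrial and ribosomal protein genes, against 0.991. The ACADVL ratio ran from 0.384 to 0.398. Those that moved were ECHS1 (3), ETFB (4), HADHA (1) and ACAA2 (1), and the ETFB ratio ran from 0.884 to 0.953. The HADHA ratio ran from 1.01 to 1.06, and that of ACADM from 0.970 to 1.01. The median log2 ratio of the members was -0.17 over those with at least 20 CPM, against -0.25 over all 10. At a fold of 1.3, 3 members were lower (ACADVL, ACAA2 and CPT2) where 10.1% of all genes were. At a fold of 2 the count was 1, ACADVL, where 0.728% of all genes were lower. The fall of ACADVL led to the choice of the members, so its count says nothing against these shares. CPT2 stayed under 20 CPM and is not among the genes behind them. With a floor of 5 CPM, 1.79% of all genes were at least 1.5-fold higher. State limits of 2 or 5 thinned UMIs kept the ACADVL ratio between 0.361 and 0.388 in both states. The low counts of CPT1A and CPT2 give the least precise ratios.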
